A study of Mus musculus with 8 samples.

Results

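The genes of potassium channels were followed in mouse neural stem and progenitor cells that overexpressed the transcription factor NFIA and in their controls. Members were all genes whose symbol is Kcn followed by a family letter or letters and a number, reached from each array probe's transcript accession. RefSeq lists 92 such symbols. Probes on the array represented 89 of them, out of 19730 genes with a symbol and an unflagged probe, while Kcng2, Kcnk7 and Kcnmb3 had no probe matched by accession. By class, the 89 genes were 15 inward rectifiers, 13 two-pore channels, 39 voltage-gated channels, 8 channels activated by sodium or calcium, and 14 accessory subunits.

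Neurospheres are floating balls of cultured neural precursors, here made from embryonic stem cells. NFIA-overexpressing and control cells were grown mixed in the same spheres and then separated by flow sorting, so all groups share the mixed culture. There were 4 groups of 2 one-colour Agilent arrays each. SN_NFIA and SN_control are NFIA-overexpressing and control cells of secondary neurospheres (passage 1, day 12 of culture). PN_NFIA and PN_control are the same kinds of cell from primary neurospheres (passage 0, day 6). The promoter that drives NFIA, the number of clones and the marker used for sorting are not given in the sources used here. Nothing says that the 2 arrays of a group came from separate cultures, so p-values measure only the spread between these arrays.

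Labels and files disagree in ways that touch every result. Groups follow the sample titles. The source names assign all 4 control arrays to the NFIA line, and assign PN_NFIA 1 and SN_NFIA 2 to the wild type. Of the 8 columns of the deposited value table, 7 matched the scanner file of another sample, and levels were taken from the matched files (correlation at least 0.9998, any other file at most 0.3347). Arranged this way, the passages lie in different rows of the slide, and NFIA and control arrays in different columns, so position cannot be told apart from either contrast. With the scanner files taken as attached to each sample, or with groups taken from the source names, 0 members passed the test for NFIA (limma). Nor did any other gene pass it there (0% of all genes). Per array, 45.4% to 56.4% of spots stood well above background and 0 were saturated, and the number of arrays limits the precision. The brighter of the Nfia probes read 1.70 and 1.62 in SN_NFIA against 1.00 and 0.61 in SN_control, and -0.24 and 0.93 in PN_NFIA against -1.30 and -0.30 in PN_control. Its difference for NFIA of 1.00 ± 0.32 (SE) missed the test (limma adjusted p = 0.171), and the probe was 1.46 ± 0.32 higher in secondary than in primary neurospheres (limma adjusted p = 0.0391). The dimmer Nfia probe, which was not the one tested, read -0.08 and -1.11 in SN_NFIA against -1.68 and -3.19 in SN_control, and -1.88 and -0.88 in PN_NFIA against -3.88 and -2.99 in PN_control. Within each passage both probes were higher on both NFIA arrays. All 8 neural stem cell markers, among them Sox2 and Nes, were well above background on 8 arrays.

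Potassium channels let potassium leave or enter the cell and so set its membrane potential. Inward rectifiers and two-pore channels hold the resting potential, and in astrocytes they also take up potassium that neurons release. Voltage-gated channels open when the cell depolarises and end action potentials, while channels activated by sodium or calcium open when those ions rise inside the cell. NFIA, a member of the nuclear factor I family, is known for turning neural precursors towards the glial fate.

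Levels below are log2 signals in which 0 is the 75th percentile of the array's own spots. Each gene is read by a different probe, so levels of different genes are not set against each other. A gene was tested when both arrays of some group had its probe well above background, by the scanner software's flag. Of the 89 members, 52 were tested and 37 were not, out of 13790 genes tested in all. A gene that passed through 1 group alone had to differ from the other groups, and 8 of the 52 members passed in that way. On all 8 arrays 29 members were well above background, and on none 22. The tested shares were 8 of 15 inward rectifiers, 10 of 13 two-pore channels, 21 of 39 voltage-gated channels, 7 of 8 sodium- or calcium-activated channels and 6 of 14 accessory subunits.

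Counts of detected members per array showed 1 low library. SN_NFIA 1 and 2 had 48 and 46 members well above background, and SN_control 1 and 2 had 32 and 48. PN_NFIA 1 and 2 had 51 each, and PN_control 1 and 2 had 44 and 49. SN_control 1 thus held fewer detected channel genes than any other array, and it also had the lowest share of spots above background, 45.4%.

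**Figure D1:**
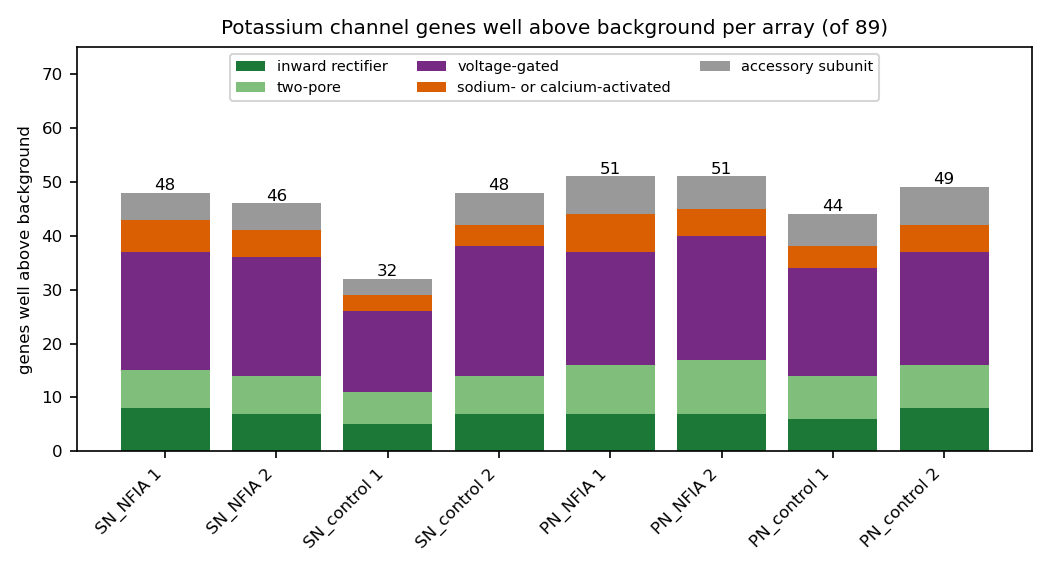
Stacked bars count the potassium channel genes well above background on each of 8 arrays (y axis, genes out of 89), coloured by class. SN_control 1 stands lowest with 32 genes, and the other 7 arrays lie between 44 and 51.

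Members not well above background on any array included Kcnk2 and Kcnk9, two-pore channels that carry background current in neurons, and Kcnk18. They also included Kcnn1, a small-conductance calcium-activated channel, and Kcnip1, a calcium-binding partner of A-type channels. Among the voltage-gated genes 11 were in this state, including Kcnq1, a slowly opening channel known from the heart, and Kcnc2 of the fast-repolarising Shaw family. A level below background does not show that a gene is silent.

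The first comparison asks which channel genes differ between NFIA and control cells when passage is accounted for. Over both passages, 3 of 52 tested members rose with NFIA and 0 fell (limma, adjusted p below 0.05), or 5.77% higher, against 1.76% of all tested genes higher and 0.189% lower. Kcnt1 and Kcnj8 could be tested only through the NFIA groups, so the share of members is not read against that of all genes. Among the 29 members well above background on all 8 arrays, tested alone with other such genes, 2 rose and 0 fell, Kcnmb4 and Kcnd3. Of all genes tested that way, 1.62% were called, in either direction. The 3 genes were Kcnt1, a sodium-activated channel, Kcnj8, the pore subunit of an ATP-sensitive inward rectifier, and Kcnmb4, a beta subunit of the large-conductance calcium-activated channel. At an unadjusted p below 0.05, 10 members were higher and 4 lower, against 10.3% and 7.35% of all genes. The median difference of the 52 members was 0.12, and that of all genes -0.05.

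Kcnt1 carries a potassium current that follows the entry of sodium during firing. Its levels were 0.45 and -0.79 in SN_NFIA against -3.57 and -4.68 in SN_control, and -1.41 and -0.63 in PN_NFIA against -4.79 and -5.97 in PN_control. All 4 NFIA arrays lay above all 4 control arrays, and the probe was well above background on 4 of 4 NFIA arrays and 0 of 4 control arrays. The fitted difference was 4.16 ± 0.42 (SE; limma adjusted p = 0.0126). Because the controls were not well above background, the fold is a lower bound: at least 12.3-fold higher in NFIA cells, with the lowest detected signal of each control array in place of its level where that was higher. Kcnt1 passed the detection filter only through the NFIA groups, so a difference was built into its being tested. It stayed past the threshold without any 1 of the 8 arrays, with differences between 3.88 and 4.45 (highest adjusted p 0.0405). After normexp background correction with an offset of 50 it still passed, but at 1.96 (limma adjusted p = 0.0146). That is a smaller difference than the bound, so the size depends on the background correction. Bounds of this kind, here and below, hold for the main background correction only.

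Kcnj8 forms ATP-sensitive potassium channels together with a sulfonylurea receptor, and is known from pericytes and smooth muscle of vessels. Its levels were -3.37 and -2.22 in SN_NFIA against -5.43 and -5.92 in SN_control, and -3.94 and -3.92 in PN_NFIA against -6.59 and -6.34 in PN_control. The NFIA and control arrays did not overlap, as held for 5 of the 52 members with NFIA higher and for 3.68% of all genes. With NFIA lower it held for 0 members and for 2.25% of all genes. The fitted difference was 2.71 ± 0.27 (limma adjusted p = 0.0126). The bound was at least 1.81-fold higher, since 0 of 4 control arrays were well above background, but the normexp difference given below is smaller than that. It too passed the filter only through NFIA groups. Without any 1 array it kept the call, with differences between 2.44 and 2.90 (highest adjusted p 0.0408), but after the same normexp correction the difference was 0.47 (adjusted p 0.372).

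Of the receptors that pair with Kcnj8, Abcc9 was well above background on 0 of 8 arrays and Abcc8 on all 8, between -1.64 and -0.76 in NFIA cells and between -1.67 and -0.97 in control cells. Markers of vessel and connective tissue cells were read beside it. Of the mesenchyme list, 6 of 6 tested genes had positive differences for NFIA and 0 passed the test (1 at an unadjusted p below 0.05, higher). Its summed level (log2 of the summed signals) was 3.30 and 3.97 in SN_NFIA against 4.10 and 5.45 in SN_control, and 2.81 and 3.60 in PN_NFIA against 1.55 and 1.48 in PN_control. The endothelium list had 2 of 4 genes tested and 0 called (0 at an unadjusted p below 0.05), and the muscle list 2 of 6 tested and 0 called (1 at an unadjusted p below 0.05). Their part in the difference of Kcnj8 was not tested.

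Kcnmb4 slows and tunes the opening of the large-conductance channel in neurons. Its levels were 4.43 and 4.88 in SN_NFIA against 2.24 and 2.69 in SN_control, and 2.15 and 2.88 in PN_NFIA against 1.57 and 1.39 in PN_control. Within each passage NFIA arrays lay above control arrays, but the PN_NFIA and SN_control ranges overlapped. The difference was 1.61 ± 0.30, or 3.06-fold (limma adjusted p = 0.0440), and the probe was well above background on all 8 arrays. A second Kcnmb4 probe gave a difference of 1.25 over both passages, 2.25 in secondary and 0.25 in primary neurospheres. The call rested on the whole set of arrays: Kcnmb4 passed without PN_NFIA 1 (adjusted p 0.0267) and missed the test without any 1 of the other 7 arrays (adjusted p 0.0705 to 0.151). Averaging both probes also ended it (adjusted p 0.0862).

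RefSeq windows of the 250 bases before the annotated start were available for 9 of the 12 members called in any comparison, and none for Kcnt1. Those of Kcnj8 and Kcnmb4 are shown because both genes rose with NFIA while their upstream sequences differ in base composition. Capitals mark CG dinucleotides, and both windows are on the minus strand of build GRCm38.p6, Kcnj8 at chr6:142571615-142571864 and Kcnmb4 at chr10:116473524-116473773.
Kcnj8: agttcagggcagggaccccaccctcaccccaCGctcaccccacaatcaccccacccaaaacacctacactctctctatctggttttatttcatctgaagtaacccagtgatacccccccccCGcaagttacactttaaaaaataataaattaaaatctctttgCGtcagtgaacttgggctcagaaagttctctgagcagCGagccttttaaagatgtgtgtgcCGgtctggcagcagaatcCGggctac
Kcnmb4: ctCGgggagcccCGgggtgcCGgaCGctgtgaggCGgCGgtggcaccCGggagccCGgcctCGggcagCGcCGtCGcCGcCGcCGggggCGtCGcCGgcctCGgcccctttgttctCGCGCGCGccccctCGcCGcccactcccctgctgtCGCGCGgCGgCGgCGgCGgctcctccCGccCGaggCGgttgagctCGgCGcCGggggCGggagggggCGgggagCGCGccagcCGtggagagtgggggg
The Kcnj8 window had 49.2% G and C and 6 CG dinucleotides, and the Kcnmb4 window 83.6% and 43. The medians of all 32851 windows were 52.4% and 6. Nuclear factor I proteins bind a gapped palindrome and, more weakly, a half-site, TTGGCA. Both were searched on both strands, and a palindrome with A after its first arm also holds the half-site. Shares were counted in longer windows, which hold 250 bases before and 50 bases after the start. In those, the half-site was in 14.1% of all windows and 10.9% of the 92 windows of member genes. The palindrome was in 0.0365% of all longer windows and 0 of the 92. Neither was in the windows shown, which says only that these letters are not in these 250 bases.

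Of the other 6 tested members of the sodium- and calcium-activated class, 4 had positive and 2 negative differences, and none passed. Kcnn2, a small-conductance channel that drives the pause after a spike, read 2.73 and 2.85 in SN_NFIA against -0.12 and 0.67 in SN_control, and -0.20 and 1.25 in PN_NFIA against -0.69 and -0.62 in PN_control. Its difference was 1.85 ± 0.40 (limma adjusted p = 0.0691), with no overlap within either passage. Kcnn3, a close relative, read 0.79 and 0.20 in SN_NFIA against -0.97 and -1.51 in SN_control, and -1.23 and 0.20 in PN_NFIA against -2.59 and -1.24 in PN_control. Its probes gave 1.56 and 1.55, and the test was missed (limma adjusted p = 0.112).

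Kcnn4, the intermediate-conductance channel known from microglia and blood cells, read -1.67 and -3.17 in SN_NFIA against -4.99 and -5.77 in SN_control, and -4.09 and -4.05 in PN_NFIA against -6.20 and -4.95 in PN_control. It was well above background on 3 of 4 NFIA arrays and 0 of 4 control arrays, and the fit missed the test (2.23 ± 0.48, limma adjusted p = 0.0652). With the controls at their lowest detected signals it was at least 1.96-fold higher. It passed the detection filter only through SN_NFIA, so a difference was built into its being tested. The blood and microglia list had 1 of 4 genes tested, and its summed level lay between 0.41 and 1.05 in NFIA arrays and between 0.19 and 0.83 in control arrays. Kcnma1, the pore of the large-conductance channel that Kcnmb4 accompanies, had a difference of 0.27 ± 0.21 (limma adjusted p = 0.562). Kcnt2, the relative of Kcnt1, had -0.30 and Kcnu1, a channel known from sperm, -0.90, neither past the test.

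Over the 7 tested members of the sodium- and calcium-activated class, 1 rose, 0 fell, 5 differences were above 0, and the median was 1.56, or 0.97 with Kcnt1 and Kcnn4 at their bounds. The median of all genes was -0.05. Members were chosen with results of these arrays in view, so the class median is a description.

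**Figure D2:**
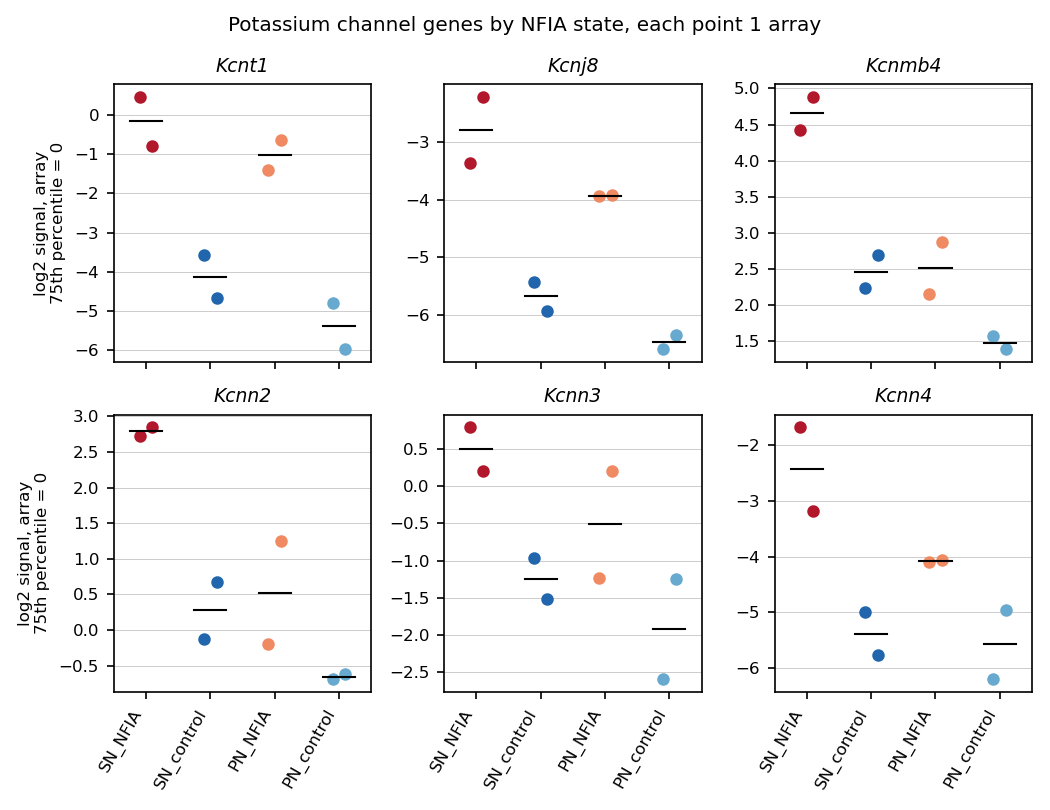
Dots give the log2 signal of 6 channel genes on each array (y axis, 75th percentile of the array at 0) by group on the x axis, and lines the mean of 2 arrays. NFIA arrays lie above control arrays of the same passage for each of the 6 genes, and for Kcnt1, Kcnj8 and Kcnn4 all 4 NFIA arrays lie above all 4 control arrays.

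Among inward rectifiers, Kcnj8 was the 1 gene of 8 that changed with NFIA. Kcnj10, the main glial inward rectifier, read 2.0 and 2.97 in SN_NFIA against -1.24 and 2.67 in SN_control, and -1.13 and 0.30 in PN_NFIA against -1.42 and -1.43 in PN_control. SN_control 2 reached the level of the NFIA arrays while SN_control 1 did not, and the difference of 1.39 ± 0.79 missed the test (limma adjusted p = 0.413). Kcnj12, a strong rectifier known from heart muscle, had 0.92 ± 0.44 (limma adjusted p = 0.330). It differed by 0.10 within secondary and by 1.74 within primary neurospheres. Kcnj9, a channel gated by G proteins, was well above background on 0 of 4 NFIA arrays and 2 of 4 control arrays, and passed the filter only through PN_control. Its fitted difference of -1.05 ± 0.45 missed the test (limma adjusted p = 0.276), with a bound of at least 1.46-fold lower.

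No two-pore channel passed the NFIA test. Of 10 tested, 3 differences were above 0 and 7 below, between -1.17 and 0.55, and 0 had an unadjusted p below 0.05. Kcnk1, an astrocyte and kidney channel with weak current, read -3.59 and -2.50 in SN_NFIA against 0.62 and -1.66 in SN_control, and -1.29 and -2.40 in PN_NFIA against -1.17 and -2.88 in PN_control. Its groups were apart in secondary and overlapped in primary neurospheres (difference -1.17 ± 0.77, limma adjusted p = 0.486). Kcnk10, a channel opened by stretch and fatty acids, had -0.50 ± 0.26 (limma adjusted p = 0.375). Kcnk16, a channel known from the pancreas, had 0.55 ± 0.40 (limma adjusted p = 0.531).

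Voltage-gated channels gave 0 calls for NFIA among 21 tested, with 3 higher and 2 lower at an unadjusted p below 0.05. Kcnd3, a pore subunit of the A-type current that delays firing, came nearest at 1.15 ± 0.24 (limma adjusted p = 0.0584), and a second probe gave 0.77. Kcnb2, a delayed rectifier, had 0.89 ± 0.23 (limma adjusted p = 0.111). Kcna1, a Shaker-type channel, had -0.24 and Kcnd2 -0.04. The 2 kept probes of Kcna5 disagreed, at 0.90 and -0.34 in secondary neurospheres.

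Of the 6 tested accessory subunits, Kcnmb4 rose and 0 fell. Kcnab1, a beta subunit of Shaker-type channels, had 0.95 ± 0.39 (limma adjusted p = 0.266), and Kcnab3, a relative, 0.01 ± 0.29. Kcnip3, a calcium sensor bound to A-type channels, had 0.56 ± 0.45 (limma adjusted p = 0.576).

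Within secondary neurospheres, the same 3 members rose with NFIA and 0 fell, against 0.479% of all genes higher and 0.435% lower. At an unadjusted p below 0.05, 11 members were higher and 6 lower, against 8.76% and 6.34% of all genes. The differences were 3.95 ± 0.62 for Kcnt1, 2.88 ± 0.40 for Kcnj8 and 2.19 ± 0.34 for Kcnmb4 (limma adjusted p = 0.0456, 0.0373 and 0.0446). Kcnt1 was at least 12.5-fold and Kcnj8 at least 2.03-fold higher. These calls depended on single arrays. Kcnt1 lost its call without any 1 of the 8 arrays (adjusted p 0.0608 to 0.147), Kcnj8 without any but SN_control 2 (0.0515 to 0.0967), and Kcnmb4 likewise (0.0572 to 0.159). Where a fit leaves 1 array in a group, that array is taken to vary like the other groups.

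Within primary neurospheres 0 of 52 members passed (limma), against 0.312% of all genes higher and 0% lower, and at an unadjusted p below 0.05 there were 7 higher and 0 lower, against 6.82% and 2.75% of all genes. Kcnt1 was 4.36 ± 0.62 (limma adjusted p = 0.0573) and Kcnj8 2.54 ± 0.40 (limma adjusted p = 0.0737). Kcnmb4 was 1.04 ± 0.34 (limma adjusted p = 0.365). Without SN_control 1, and likewise without SN_control 2, Kcnt1 passed in primary neurospheres, in fits that called more of all genes as well. In a fit of the primary arrays alone, Kcnt1 and Kcnj8 both passed, as did 1.06% of all genes. Both genes passed the detection filter only through NFIA groups, so a difference was built into their being tested.

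Whether the NFIA difference itself changed with passage was tested as an interaction. None of the 52 members passed (limma), nor did any of all 13790 genes (0%), while at an unadjusted p below 0.05 there were 2 members higher and 3 lower, against 2.76% and 4.0% of all genes. For Kcnmb4 the secondary minus primary difference was 1.15 ± 0.48 (limma adjusted p = 0.735). Those of Kcnk6 and Kcnk3, both two-pore channels, were -4.65 ± 1.42 and 1.64 ± 0.40 (limma adjusted p = 0.529 and 0.375). The call for Kcnmb4 in secondary and not in primary neurospheres is therefore no shown difference between passages.

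The other main contrast asks which channel genes differ between secondary and primary neurospheres. Over both cell types, 4 of 52 members rose (7.69%) and 6 fell (11.5%) in secondary neurospheres, against 3.40% of all genes higher and 3.86% lower. At an unadjusted p below 0.05, 15 members were higher and 7 lower, against 11.0% and 15.3% of all genes. All 4 secondary arrays lay above all 4 primary arrays for 4 members and below them for 4, against 4.42% and 8.01% of all genes. With normexp background correction, and likewise with only genes detected on all 8 arrays, 6 members rose and 3 fell, so the balance of directions changed with these settings. The genes that rose were Kcnj16, Kcnd2, Kcnmb4 and Kcnd3. Among those that fell were Kcnk5, Kcnmb2, Kcnab3, Kcnh2 and Kcnj4. All 8 arrays enter both this contrast and the one for NFIA, so the sets of calls share their samples.

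Kcnj16 partners Kcnj10 in glial inward rectifiers and makes them sensitive to pH. It read -1.66 and -0.23 in SN_NFIA and -4.25 and -1.07 in SN_control, against -6.75 and -6.50 in PN_NFIA and -6.49 and -6.56 in PN_control. All 4 secondary arrays lay above all 4 primary arrays, and the probe was well above background on 3 of 4 secondary and 0 of 4 primary arrays. The difference was 4.78 ± 0.72 (limma adjusted p = 0.0186), at least 6.73-fold higher. After normexp background correction it passed at 1.65 (limma adjusted p = 0.0303), which is below that bound. SN_control 1 was the secondary array below detection. Kcnj16 passed the filter only through SN_NFIA, and it lost the call without PN_control 1 or without PN_NFIA 1 (adjusted p 0.0530 and 0.0653).

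Kcnj10 itself had 2.52 ± 0.79 (limma adjusted p = 0.0932) and did not pass. Its SN_control arrays, at -1.24 and 2.67, lay further apart than any other pair of that gene. In 1 of 21 alternative settings, the fit without SN_control 1, Kcnj10 was among the members called. That fit leaves out the lower of the SN_control values, and more of all genes were called as well. Kcnj4, a strong inward rectifier known from the forebrain, fell: -2.59 and -2.66 in SN_NFIA and -2.86 and -1.62 in SN_control, against -1.50 and -1.31 in PN_NFIA and -1.39 and -0.79 in PN_control. The passages did not overlap (-1.19 ± 0.29, limma adjusted p = 0.0480).

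Kcnd2, the main A-type pore of neuronal dendrites, read 0.95 and 2.83 in SN_NFIA and 0.79 and 2.53 in SN_control, against -0.68 and -0.82 in PN_NFIA and -0.35 and -0.53 in PN_control. All secondary arrays were above all primary arrays, and in both secondary groups replicate 2 stood higher than replicate 1. The difference was 2.37 ± 0.49, or 5.17-fold (limma adjusted p = 0.0339). Kcnd3 read 4.58 and 3.94 in SN_NFIA and 2.87 and 2.82 in SN_control, against 2.61 and 3.23 in PN_NFIA and 1.90 and 2.18 in PN_control. The ranges overlapped through PN_NFIA 2, and the difference was 1.07 ± 0.24 (limma adjusted p = 0.0391). Kcnip3, a calcium sensor that binds both, was 1.80 ± 0.45 and missed the test (limma adjusted p = 0.0531).

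Kcnmb4 rose with passage as well as with NFIA, by 1.56 ± 0.30 (limma adjusted p = 0.0293), and with both probes averaged it missed the test here too (1.34, limma adjusted p = 0.0569). Its relative Kcnmb2, which inactivates the large-conductance channel, fell: -4.56 and -6.00 in SN_NFIA and -4.12 and -5.21 in SN_control, against -3.17 and -3.97 in PN_NFIA and -3.18 and -2.68 in PN_control. It was well above background on 0 of 4 secondary and 4 of 4 primary arrays (-1.72 ± 0.39, limma adjusted p = 0.0411), a fall of at least 1.67-fold. Kcnab3 was in the same state, with 0 of 4 secondary and 4 of 4 primary arrays well above background. It read -3.95 and -4.38 in SN_NFIA and -3.62 and -4.48 in SN_control, against -2.60 and -2.12 in PN_NFIA and -2.93 and -2.07 in PN_control (-1.68 ± 0.29, limma adjusted p = 0.0232, at least 2.69-fold lower).

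Kcnk5, a two-pore channel sensitive to alkaline pH, was the 1 called member of its class. Its levels were -5.05 and -5.20 in SN_NFIA and -5.43 and -4.53 in SN_control, against -2.98 and -4.14 in PN_NFIA and -2.67 and -2.57 in PN_control. It too was well above background on 0 of 4 secondary and 4 of 4 primary arrays, and the passages did not overlap. The difference was -1.96 ± 0.33 (limma adjusted p = 0.0229), at least 1.87-fold lower in secondary neurospheres. Kcnk5, Kcnmb2 and Kcnab3 passed the filter only through primary groups, so their fall was built into their being tested. After normexp background correction none of the 3 passed, at -0.57 for Kcnk5, -0.45 for Kcnmb2 and -0.60 for Kcnab3 (limma adjusted p = 0.0763, 0.138 and 0.122). Each of these falls is smaller than the bound given for that gene.

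Kcnh2, a channel of the ether-a-go-go family known for repolarising heart muscle, read -1.44 and -1.99 in SN_NFIA and -0.35 and -1.55 in SN_control, against -0.05 and -0.43 in PN_NFIA and 0.46 and 0.05 in PN_control. SN_control 1 overlapped PN_NFIA (-1.34 ± 0.30, limma adjusted p = 0.0391).

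These passage calls rested on the full set of arrays. Kcnd2, Kcnd3, Kcnh2, Kcnmb2 and Kcnmb4 passed without SN_control 1 (adjusted p 0.0160 to 0.0431) and missed the test without any 1 of the other 7 arrays (0.0517 to 0.132). Kcnj4 held without SN_control 1 or 2 (adjusted p 0.0487 and 0.0282) and missed without any 1 of the other 6 (0.0838 to 0.131). Kcnab3 held without PN_control 1, SN_control 1 or SN_control 2 and missed without any of the other 5 (0.0558 to 0.0708), and Kcnk5 held without PN_NFIA 2, SN_control 1 or SN_control 2 and missed without any of the other 5 (0.0519 to 0.0773). The number of members called moved with the array left out. So did the number of all genes called, so the member counts are not read as a result about channel genes. No passage call of a member, or of any other gene, was left without both PN_NFIA 1 and SN_NFIA 2, whose source names give the wild type.

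**Figure D3:**
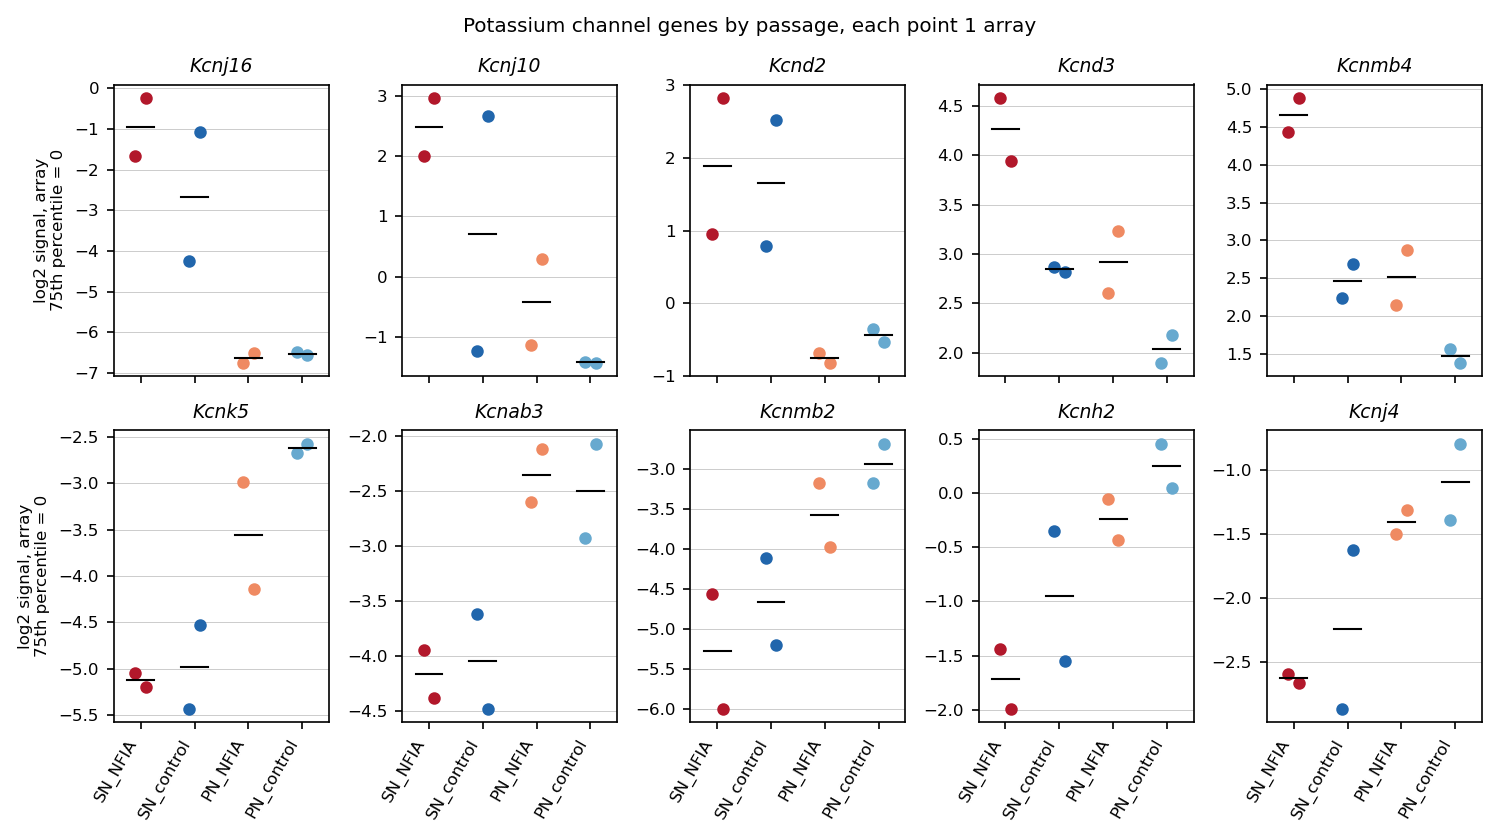
Dots give the log2 signal on each array (y axis, 75th percentile of the array at 0) by group on the x axis for 9 of the 10 genes called between passages and Kcnj10, with lines at the mean of 2 arrays. Kcnj16 and Kcnd2 lie higher on all 4 secondary arrays, and Kcnk5, Kcnab3, Kcnmb2 and Kcnj4 lower on all 4.

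The sodium- and calcium-activated class had 0 of 7 members called between passages (limma), with 3 higher and 0 lower at an unadjusted p below 0.05. Kcnma1 had 0.85 ± 0.21 (limma adjusted p = 0.0542) and Kcnn2 1.60 ± 0.40 (limma adjusted p = 0.0551). Kcnt1 had 1.05 ± 0.42 (limma adjusted p = 0.163). The class median was 0.85 and that of all genes -0.08.

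Split by cell type, 2 members rose and 0 fell with passage in NFIA cells, against 0.544% of all genes higher and 1.34% lower. At an unadjusted p below 0.05, 13 members were higher and 8 lower, against 9.71% and 11.6% of all genes. They were Kcnj16, at 5.68 ± 0.96 and at least 11.6-fold higher (limma adjusted p = 0.0433), and Kcnmb4, at 2.14 ± 0.34 (limma adjusted p = 0.0383). Both lost the call without any 1 of the NFIA or PN_control arrays (adjusted p 0.0623 to 0.262). In control cells 0 members passed (limma), against 0.725% of all genes higher and 0.138% lower, and 6 were higher and 7 lower at an unadjusted p below 0.05, against 6.45% and 6.98% of all genes. Kcnj16 was 3.87 ± 0.96 there (limma adjusted p = 0.158). Without SN_control 1, Kcnj10 and Kcnj16 were among the members called in control cells, and more of all genes were called as well.

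**Figure D4:**
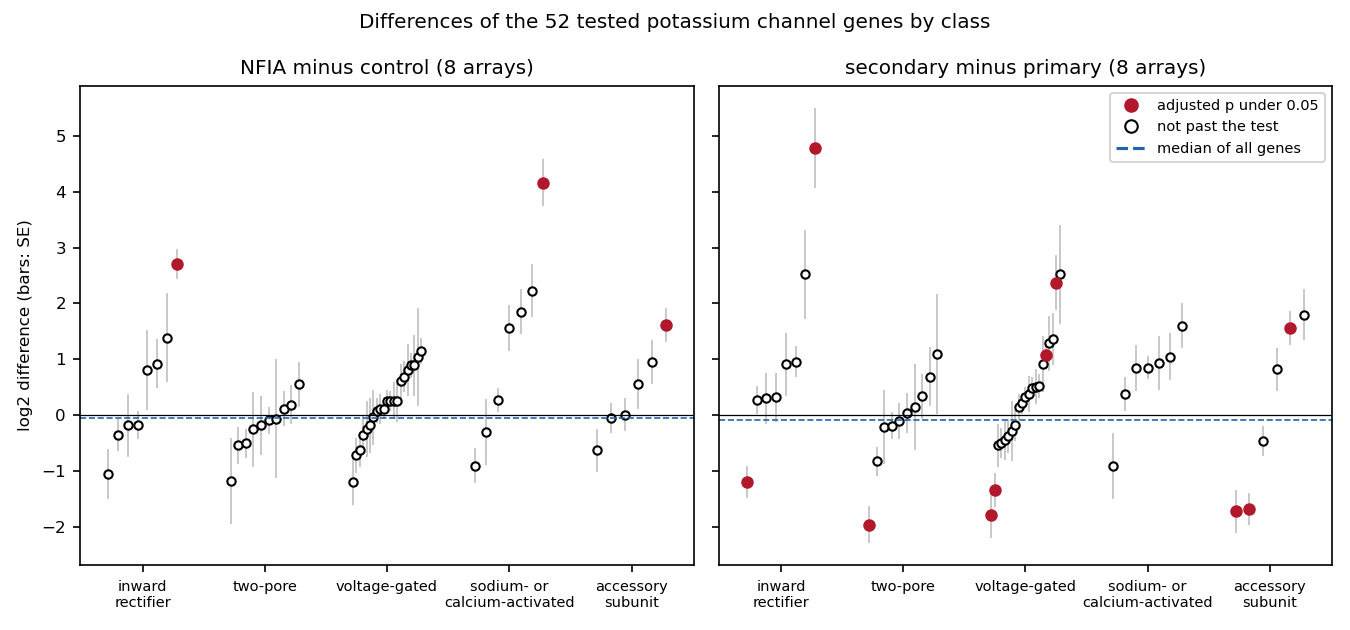
Each circle is the log2 difference of 1 of 52 tested potassium channel genes (y axis, bars are SE) by class on the x axis, for NFIA minus control at left and secondary minus primary at right, filled where adjusted p was below 0.05. Kcnt1 at 4.16 is the highest filled circle at left and Kcnj16 at 4.78 at right, and the dashed line marks the median of all genes, -0.05 and -0.08.

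Replicate arrays of the SN_control group differed more than other replicate pairs did, in channel genes and over all tested genes. Between SN_control 1 and 2, 10 of 52 members (19.2%) differed by over 2 log2 units, as did 4.85% of all tested genes. The count was 1 member in SN_NFIA, 1 in PN_NFIA and 0 in PN_control, against 2.38%, 0.848% and 0.819% of all tested genes. Of the 10 genes, 7 were higher on SN_control 2 and 3 on SN_control 1. Only Kcnj10, Kcnk1 and Kcnk6 were well above background on both of these arrays. Each of the others was so on 1 of them, so the size of its difference rests on a value not well above background. The limit of 2 was chosen after the values had been seen.

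Kcnj10 was at -1.24 on SN_control 1 and 2.67 on SN_control 2. Kcnj16 was at -4.25 and -1.07, and Kcnv1, a silent voltage-gated subunit, at -5.44 and -1.96. The same direction held for Kcna1, Kcna2, Kcns3 and Kcnk15. The opposite was seen for Kcnk6, at -0.17 on SN_control 1 and -3.34 on SN_control 2, for Kcnk12 at -1.97 and -4.78, and for Kcnk1 at 0.62 and -1.66, so that the genes higher on SN_control 1 were all two-pore channels.

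A few untested members were high on SN_control 2 alone. Kcng4, a modifying subunit of delayed rectifiers, was at 0.44 there and between -6.79 and -5.47 on the other 7 arrays. Kcnq5, an M-current subunit, was at -0.31 there and between -6.69 and -5.40 elsewhere, but its other probe was at -5.91 there. Kcne4, an accessory subunit, was at -2.74 there and at -5.45 or lower elsewhere, and its other probe was at -5.85 there. For these 2 genes the probes thus disagreed. Over all arrays 4 of 89 members (4.49%) had 1 array 2 or more above the next, as did 4.26% of all 19730 genes.

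Markers of other cells differed between the same arrays. The summed level of 6 oligodendrocyte markers was 8.51 on SN_control 2 and 3.58 on SN_control 1. On the SN_NFIA arrays that sum was 4.21 and 6.52, and on the primary arrays it lay between 2.78 and 2.94 in PN_NFIA and between 3.07 and 3.17 in PN_control. The summed level of 9 astrocyte markers was 7.77 on SN_control 2 and 5.79 on SN_control 1, and that of 12 neuron markers 6.59 and 7.98. Which cells carried the channel transcripts was not tested, and in sorted bulk RNA fewer cells of a type and less RNA per cell cannot be told apart.

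**Figure D5:**
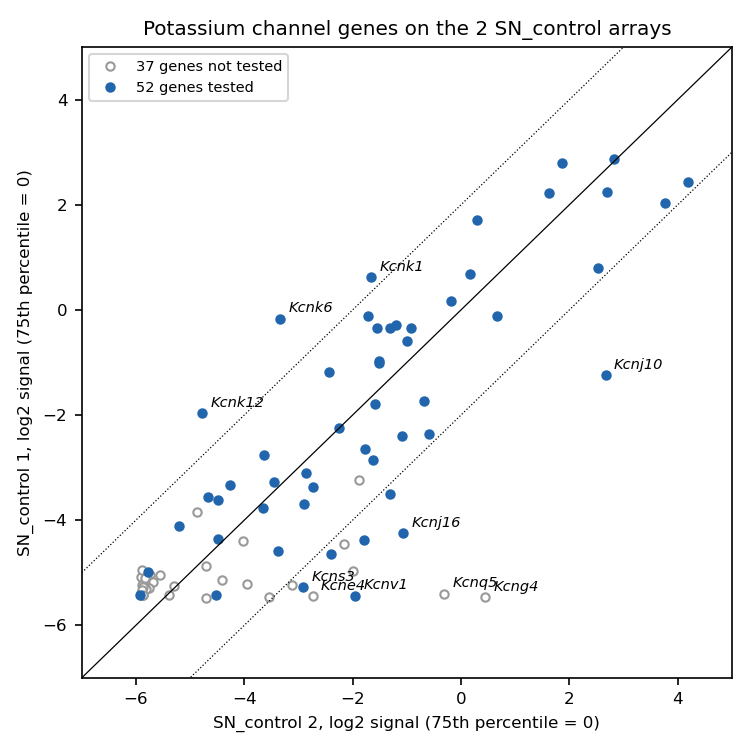
Each point is 1 of 89 potassium channel genes, with its log2 signal on SN_control 2 on the x axis and on SN_control 1 on the y axis, and dotted lines 2 units either side of equality. Of the 52 tested genes 10 lie outside the dotted lines, 7 to the right and 3 above.

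Markers of several cell types were read in both main contrasts. For NFIA against control, 8 of 9 astrocyte markers had positive differences and 1 passed, Sparcl1, while 10 of 12 neuron markers had negative ones and 0 passed (limma; 6 lower at an unadjusted p below 0.05). Summed astrocyte levels were 8.94 and 9.73 in SN_NFIA against 5.79 and 7.77 in SN_control, and 6.02 and 7.66 in PN_NFIA against 4.05 and 4.30 in PN_control. For secondary against primary neurospheres, 4 of 9 astrocyte markers rose, among them Gfap and Slc1a3, and 3 of 12 neuron markers fell. Gfap was well above background on 2 arrays only and passed the filter through SN_NFIA, so a difference was built into its being tested. Also between passages, 1 gene each of the oligodendrocyte, mesenchyme and muscle lists rose, and 1 each of the pluripotent cell and neural stem cell lists fell. The summed level of 6 pluripotent cell markers was 2.06 and 3.15 in SN_NFIA against 4.22 and 5.05 in SN_control, and 6.14 and 5.35 in PN_NFIA against 5.24 and 5.15 in PN_control. For NFIA 0 of those 6 passed (limma; 0 at an unadjusted p below 0.05). Their part in the channel results was not tested.

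Other genes of potassium handling, chosen as partners, pumps and cotransporters, were read on the same arrays. Of 32 listed, 24 were tested. For NFIA, 0 passed (limma; 5 higher and 0 lower at an unadjusted p below 0.05), with a median difference of 0.03. Between passages 2 rose and 1 fell, among them Dpp10, an auxiliary subunit of A-type channels, with 2.30 ± 0.43 (limma adjusted p = 0.0274), and Slc12a7, a potassium-chloride cotransporter, with -1.79 ± 0.34 (limma adjusted p = 0.0286).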

How the data were processed

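RNA of 8 samples was labelled with Cy3 and hybridised to one-colour Agilent arrays, per the labels' protocols. The deposited scanner files hold processed spot intensity from Agilent Feature Extraction, version 10.5.1.1 per the file headers and 10.7.3.1 per the submitters' processing notes. The value table deposited by the authors holds log2 values that were scaled to the 75th percentile and centred on each probe's median, as setting it against the scanner values showed. Levels came from the scanner file that matched each column of that table.

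Control spots (62976 spots, 59305 not controls) and 126 probes with outlier flags were left out. Levels are log2 intensity minus the array's 75th percentile. A probe with several spots counted as well above background when at least 50% of its spots were so flagged, a rule chosen after calls under a looser one (any spot) had been seen. Accessions were named through RefSeq (GRCm38.p6). The brightest of a gene's 30186 kept probes stood for it, which left 13790 genes. Tests used limma 3.58.1 in R 4.3.3 (lmFit, eBayes) with Benjamini-Hochberg adjustment over all 13790 genes and a threshold of 0.05. Contrasts over both passages or both cell types came from an additive model, and the other 5 from a model of 4 group means. Simulated data for NFIA over both passages held 13790 genes, 200 of them changed. Recovery was 27.0% for genes changed by 1 log2 unit and 81.0% for those changed by 2, with 11 false calls. The changed genes were drawn from all genes, and each gene kept the same spread in all groups. Tested members had a median replicate SD of 0.57, against 0.34 for all genes. The recovery rates are therefore not read as those of channel genes.

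The scanner files hold no mean signal, so the normexp alternative used the median signal. Values are given for each array, and standard errors are those of the fit. The members and all gene lists were chosen with earlier results of these data known, as were the sequence descriptions. By rule, the text names members past any test, in each class the 4 with the smallest p for NFIA and the 3 for passage, and a fixed list of well-known channels. Members named for differing between the SN_control arrays, for the interaction, for lying below background on every array, or as relatives (Kcnt2, Kcnu1) were chosen after their values were seen. Results of some genes that the rule names are not reported here. Python 3.11.15, pandas 2.3.3, numpy 2.4.6 and matplotlib 3.10.9 read the files and drew the figures.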

Additional observations from a re-analysis of the deposited data

How the results depend on the processing

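Kcnt1 and Kcnj8 kept their NFIA call over both passages without any 1 array, and every other called member lost its call in at least 1 such fit. Kcnt1 and Kcnj8 had entered the test only through NFIA groups, and the detection filter was not redone in these fits. After normexp background correction Kcnj8 missed the test (0.47, limma adjusted p = 0.372). The number of all genes called also moved between such fits, so the member counts are not read as a result about channel genes. Leaving out 1 array gave 2 to 5 called members for NFIA over both passages, 0 to 7 for NFIA in secondary neurospheres, 0 to 1 for NFIA in primary neurospheres, 0 to 16 between passages, 0 to 7 between passages in NFIA cells and 0 to 5 in control cells, against 3, 3, 0, 10, 2 and 0 with all arrays.

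With the scanner files as attached to the samples, 0 members and 0% of all genes were called in all of these comparisons. Signs then turned for Kcnmb4 (-0.57 for NFIA over both passages, -1.03 in secondary neurospheres, -0.14 between passages and -0.59 between passages in NFIA cells), Kcnd3 (-0.37) and Kcnh2 (0.36). With groups from source names, 0 members and 0% of all genes were called for NFIA, at -2.18 for Kcnj8, -0.98 for Kcnmb4 and -2.10 for Kcnt1. The source names place every control array in the NFIA line and give the wild type only for PN_NFIA 1 and SN_NFIA 2. No array titled as a control then stands on the control side of these differences. Without the 2 NFIA arrays with a wild-type source name, NFIA over both passages gave 2, and NFIA in secondary neurospheres, passage, and passage in NFIA cells 0 each.

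No filter on dim probes gave 0 for NFIA in secondary neurospheres, 4 between passages and 0 between passages in NFIA cells. The shares of all genes called were 0.112%, 2.45% and 0.350%. Detection on all 8 arrays gave 1 for NFIA in secondary neurospheres and 1 between passages in NFIA cells (0.565% and 1.87% of all genes). An intensity trend with a robust prior, and the average of the group contrasts, each gave 5 for NFIA over both passages. The shares of all genes called were 2.31% and 2.75%. Fits of only the 2 groups compared gave 0 for NFIA in secondary and 2 in primary neurospheres, and 1 between passages in NFIA cells. The shares of all genes called were 0%, 1.06% and 0.247%. Quantile normalization, the authors' value table, the mean of a gene's probes, normexp and detection by any spot kept all 7 counts within 1.5 times. The genes were not all the same. For NFIA over both passages normexp called Kcnd3, Kcnmb4, Kcnn2 and Kcnt1 (1.99% of all genes), and in secondary neurospheres Kcnmb4, Kcnn2 and Kcnt1 (1.47%). Between passages in NFIA cells it called Kcnmb4 and Kcnn2 (1.99%). Of its 9 passage calls over both cell types, 7 were among the main calls. Between passages, however, normexp gave 6 higher and 3 lower, as did detection on all 8 arrays, against 4 and 6. The cause of these changes was not tested.

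The labels do not say that replicate numbers pair samples. Same-numbered samples deviated together within a passage (r = 0.48 in secondary and 0.45 in primary neurospheres) and not across passages (r between -0.19 and 0.04, over 13790 genes). With a replicate block, NFIA over both passages gave 2 members, NFIA in secondary neurospheres 0, and passage in NFIA cells 4. The shares of all genes called were 1.95%, 0.544% and 2.51%. With a replicate block within each passage, NFIA in secondary neurospheres gave 9 members, and 4.68% of all genes. A crossed replicate block, chosen after seeing the data, gave 5 for NFIA over both passages and 4 between passages in NFIA cells. The shares of all genes called were 2.20% and 3.89%.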
